A study of Mus musculus with 84 samples.

Results

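Potassium channel genes were described in neuronal nuclei of the mouse frontal cortex after a single injection of the psychedelic DOI. The genes were chosen by name alone: every protein-coding gene whose symbol starts with Kcn, leaving out transcripts named as antisense or overlapping RNAs of such genes. That rule gave 94 of the 55401 gene IDs counted, and 72 of the 94 had enough counts to enter the tests, in which 17941 genes took part. DOI (2,5-dimethoxy-4-iodoamphetamine) is an agonist of serotonin 2A receptors. RNA had been sequenced from nuclei sorted for NeuN, a protein of neuronal nuclei, and there were 4 groups of 4 mice of strain 129S6/SvEvTac aged 12 weeks: vehicle-treated mice, and mice taken 24 h, 48 h and 7 days after DOI. The labels give no dose and no genetic change in any group. They also do not say whether a number shared by mice of different groups marks a litter or a day.

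Potassium channels let potassium leave the cell and so pull the membrane back toward rest, which sets how readily and how regularly a neuron fires. Voltage-gated subunits (the Kcna to Kcnd families, Kcnh and Kcnq) shape the action potential and its threshold. Inward rectifiers (Kcnj) and leak channels (Kcnk) act near rest, and calcium- or sodium-activated channels (Kcnm, Kcnn, Kcnt) act after firing. A further set (Kcnf, Kcng, Kcns, Kcnv) makes subunits that form no channel alone and change the behaviour of other voltage-gated subunits when they join them, while Kcnip and Kcne genes encode accessory proteins.

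By family, 17 of 20 Kcna to Kcnd genes (with the beta subunits Kcnab) entered the tests, as did 8 of 8 Kcnh, 9 of 15 Kcnj, 9 of 14 Kcnk, 4 of 5 Kcnm, 3 of 4 Kcnn, 4 of 5 Kcnq, 2 of 2 Kcnt and 16 of the 21 others. The 22 genes that did not were Kcna5, Kcna7, Kcna10, Kcnj1, Kcnj5, Kcnj8, Kcnj13, Kcnj14, Kcnj15, Kcnk5, Kcnk7, Kcnk15, Kcnk16, Kcnk18, Kcnmb1, Kcnn4, Kcnq1 and the 5 Kcne genes. The highest count of any of these in a mouse was 27, and 1 of them had no count in any mouse. Several of them are known mainly from heart, epithelia, vessels or blood cells.

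The 4 start-site regions are shown because they belong to the members with the smallest p at 48 h in each direction for which a region was at hand. A RefSeq region (GRCm38.p6, 250 bases before to 50 after an annotated start) was matched for 69 of the 94 genes. Capitals mark any match, on either strand, to TGACGTCA (the cyclic AMP response element), TGANTCA (AP-1), CACGTG (E-box), GCGNGGGCG (EGR) or TATAAA. Kcnj6 (chr16:94997647-94997946, minus strand) and Kcnab2 (chr4:152477500-152477799, minus strand) were higher after DOI. Kcnh1 (chr1:192190527-192190826, plus strand) and Kcnj2 (chr11:111065914-111066213, plus strand) were lower. The RefSeq starts lay 5, 361, 3 and 0 bases from the gene starts of the count files, in that order.
Kcnj6: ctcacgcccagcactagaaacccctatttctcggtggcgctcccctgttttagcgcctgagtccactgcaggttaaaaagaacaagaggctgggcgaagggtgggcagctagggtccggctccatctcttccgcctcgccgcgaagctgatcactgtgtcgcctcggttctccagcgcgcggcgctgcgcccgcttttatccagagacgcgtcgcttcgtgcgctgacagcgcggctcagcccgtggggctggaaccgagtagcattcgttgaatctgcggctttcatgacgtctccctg
Kcnab2: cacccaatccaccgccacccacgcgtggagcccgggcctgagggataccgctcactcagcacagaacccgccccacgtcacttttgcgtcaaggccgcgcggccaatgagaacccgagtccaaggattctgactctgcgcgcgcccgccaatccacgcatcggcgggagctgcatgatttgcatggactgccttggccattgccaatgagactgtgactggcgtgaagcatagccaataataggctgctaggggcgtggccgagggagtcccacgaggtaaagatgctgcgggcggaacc
Kcnh1: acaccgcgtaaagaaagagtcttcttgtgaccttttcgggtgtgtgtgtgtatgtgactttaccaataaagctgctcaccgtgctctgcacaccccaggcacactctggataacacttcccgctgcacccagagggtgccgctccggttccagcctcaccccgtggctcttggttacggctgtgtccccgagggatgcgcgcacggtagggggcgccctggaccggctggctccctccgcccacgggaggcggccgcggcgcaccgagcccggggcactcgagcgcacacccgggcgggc
Kcnj2: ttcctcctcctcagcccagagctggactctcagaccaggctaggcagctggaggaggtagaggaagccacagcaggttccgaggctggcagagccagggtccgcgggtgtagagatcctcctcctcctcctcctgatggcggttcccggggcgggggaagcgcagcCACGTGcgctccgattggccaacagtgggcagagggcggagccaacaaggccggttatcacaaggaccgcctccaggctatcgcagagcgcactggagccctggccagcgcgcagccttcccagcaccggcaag
Only the Kcnj2 region among these 4 held a match, an E-box that starts at base 167. Its share of G and C was 66.7%, against 66.0% for Kcnh1, 62.7% for Kcnab2 and 62.0% for Kcnj6. Over the 69 regions of potassium channel genes, the cyclic AMP response element was found in 0, the E-box in 5 (7.25%), and AP-1, EGR and TATAAA in 3 each (4.35%). Over the regions of 16800 protein-coding genes the shares were 2.36%, 7.94%, 6.95%, 7.63% and 13.0% in the order response element, E-box, AP-1, EGR and TATAAA. The median number of CG pairs was 19 in the regions of the 10 matched genes that were higher at 24 h or 48 h, 8 in those of the 7 that were lower, 10 over all 69 potassium channel regions and 14 over all protein-coding genes. These matches and counts are descriptions of 300-base windows.

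Levels are given as CPM (counts scaled to a common total) after TMM scaling, and between genes as CPM per kilobase of exon. In vehicle mice the leak channel gene Kcnk1 (TWIK-1) stood highest, at 82.5 ± 10.2 CPM per kilobase (SD, n = 4 here and below). It was followed by the silent subunit genes Kcnv1 at 74.1 ± 3.28 and Kcnf1 at 58.4 ± 9.97, then by Kcnip3 at 38.9 ± 10.7 and the sodium-activated channel gene Kcnt1 (Slack) at 37.7 ± 3.99. Kcnk1 and Kcnv1 lay within their spread of each other, as did Kcnip3 and Kcnt1. A close group came next: Kcnip4 at 32.4 ± 5.15, the G protein-gated inward rectifiers Kcnj9 (GIRK3) at 29.1 ± 1.89 and Kcnj3 (GIRK1) at 29.0 ± 4.59, Kcnh7 at 27.2 ± 4.32 and the fast-spiking type channel Kcnc2 at 27.02 ± 2.23. Neighbours in that group did not differ beyond their spread. Of the 72 tested genes, 25 had at least 10 CPM per kilobase and 12 had less than 1.

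**Figure D1:**
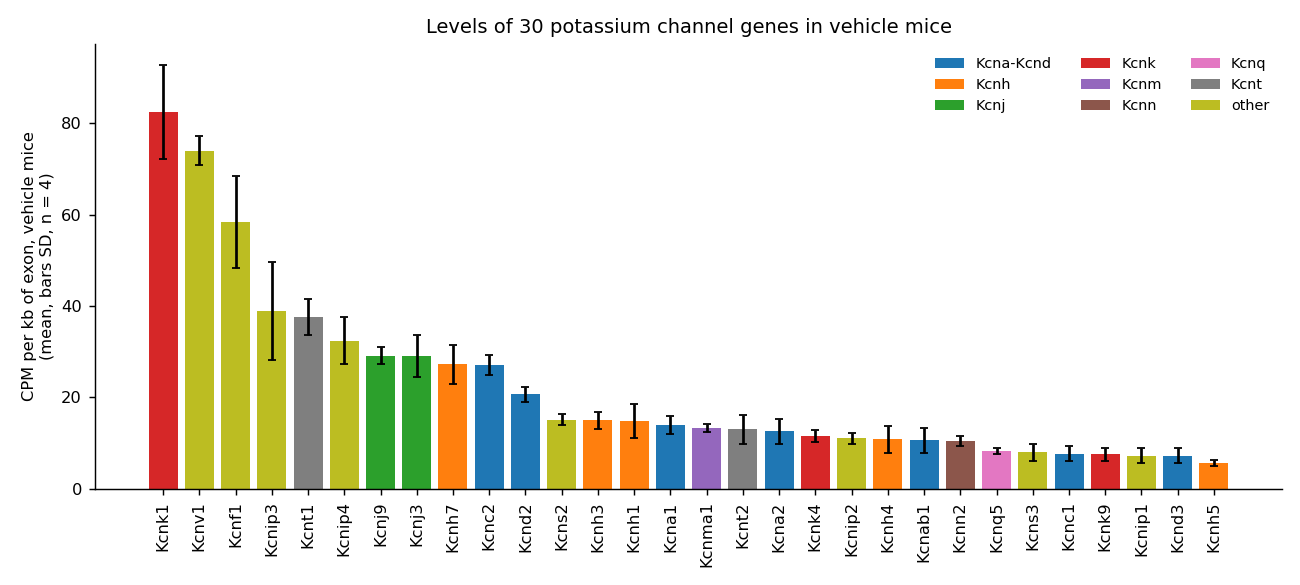
Mean level in the 4 vehicle mice, in CPM per kilobase of exon (vertical axis, bars SD), of 30 tested potassium channel genes among those with the highest levels, coloured by family. Kcnk1, Kcnv1 and Kcnf1 stand above the others shown, at 82.5, 74.1 and 58.4.

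The mice differed in more than treatment, and these values stand beside every result that follows. Total counts were between 9151680 and 11517452 in vehicle mice, between 6441396 and 8090559 at 24 h, between 5834248 and 7344355 at 48 h, and between 6972577 and 12354785 at 7 days, so 3 counts in a mouse were worth 0.243 to 0.514 CPM. An 18S ribosomal RNA pseudogene (Rn18s-rs5) took 0.00694% to 0.0101% of the counts in vehicle mice, 0.328% to 1.57% at 24 h and 0.523% to 1.66% at 48 h. At 7 days it took 0.00835%, 0.633%, 0.00607% and 0.474% in mice 1 to 4. Mitochondrial genes took between 0.0171% and 0.0701% of the counts in vehicle mice, between 0.0621% and 0.101% at 24 h, between 0.108% and 0.268% at 48 h and between 0.0210% and 0.130% at 7 days, so the 48 h mice all lay above vehicle. The sum of 8 excitatory neuron markers was 510.2 to 559.3 CPM in vehicle mice, between 1006 and 2459 at 24 h, between 1507 and 2255 at 48 h, and 481.1 to 1415 at 7 days. Most of that rise was Camk2a (mean 179.6 CPM in vehicle and 1401 at 24 h), while the marker Slc17a7 had means of 141.2 and 81.2. Of these 8 markers, 3 were called higher and 0 lower at each of 24 h and 48 h. The NeuN gene Rbfox3 was at 46.2 to 67.9 CPM in vehicle, between 88.1 and 114.7 at 24 h, between 83.6 and 109.0 at 48 h, and from 59.2 to 111.3 at 7 days. Sums of the inhibitory, astrocyte, oligodendrocyte and precursor markers overlapped between vehicle and each DOI group. The 6 microglia markers summed to 131.8 to 165.9 CPM in vehicle mice, 71.5 to 145.5 at 24 h and 87.1 to 133.3 at 48 h. The 5 endothelial markers summed to at most 2.04 CPM in vehicle mice, to 22.6, 0.742, 1.90 and 13.9 CPM in the 24 h mice and to between 2.02 and 3.54 at 48 h, and the 1 of them that was tested was higher at 24 h. In bulk nuclei, fewer nuclei of a type and less RNA per nucleus cannot be told apart, and the part of the mitochondrial share and these markers in the results was not tested. For the 18S share the fit with it as a covariate is given below. For depth, every mouse was thinned to 5834248 counts, which left 17 of the 18 calls at 24 h and 20 of the 22 at 48 h given below.

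At 24 h after DOI, 18 of the 72 tested potassium channel genes differed from vehicle (edgeR quasi-likelihood test, Benjamini-Hochberg or BH-adjusted p below 0.05 over all genes tested). Higher were 8 of them (11.1%), against 13.8% of all genes and 11.4% of protein-coding genes. Lower were 10 (13.9%), against 10.4% of all genes and 12.6% of protein-coding genes. The median log2 fold change of the potassium channel genes was -0.01, and that of all genes tested was 0.03. The share called was close to that of other genes, and there were calls in both directions among the Kcna to Kcnd genes, the Kcnj genes and the set of others. Scaled by total counts alone, 9 were higher and 7 lower. Mice of the 24 h and vehicle groups did not overlap for 27 of the 72 genes (37.5%), against 35.8% of protein-coding genes. With 1 mouse of these 2 groups left out at a time (8 fits), the number called was 9 to 16. These made 12.3% to 21.9% of the potassium channel genes, and the share of all genes was 13.9% to 21.2%. The lowest number came without vehicle mouse 2, at 12.3% against 14.1% of all genes. In all 8 fits 8 genes were called, among them Kcna6, Kcnj6, Kcnn3, Kcnq3, Kcng2, Kcnh1 and Kcnv1. The other 10 calls were each lost without at least 1 of the mice. With the 18S share as a covariate, 0 were called (5 at an unadjusted p below 0.05), and the share of all genes called in that fit was not worked out. The groups account for 75.1% of the variance of the log2 18S share, which did not overlap between vehicle mice and those of 24 h or 48 h. Group and 18S share therefore cannot be told apart at these times.

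At 48 h the number was 22 of 72. The 14 genes that were higher made 19.4%, against 16.8% of all genes and 13.8% of protein-coding genes, and the 8 that were lower made 11.1%, against 13.3% and 16%. The median log2 fold change was 0.08, against 0.02 for all genes. Groups did not overlap for 29 of the 72 (40.3%), against 38.7% of protein-coding genes. Leaving out 1 mouse of the vehicle or 48 h group at a time gave 13 to 22 calls, or 17.8% to 30.1%, against 19% to 26.4% of all genes. The lowest number came without vehicle mouse 2, at 17.8% against 19.4% of all genes. Called in all 8 of these fits were 11 genes, among them Kcna2, Kcna6, Kcnab2, Kcnj6, Kcnn3, Kcnq3, Kcnh1, Kcns2 and Kcnv1. The other 11 were each lost without at least 1 mouse. With the 18S share as a covariate 0 were called (4 at an unadjusted p below 0.05), and the share of all genes in that fit was again not worked out. An F test over all 4 groups called 17 (23.6%), against 18.8% of all genes and 19.8% of protein-coding genes.

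**Figure D2:**
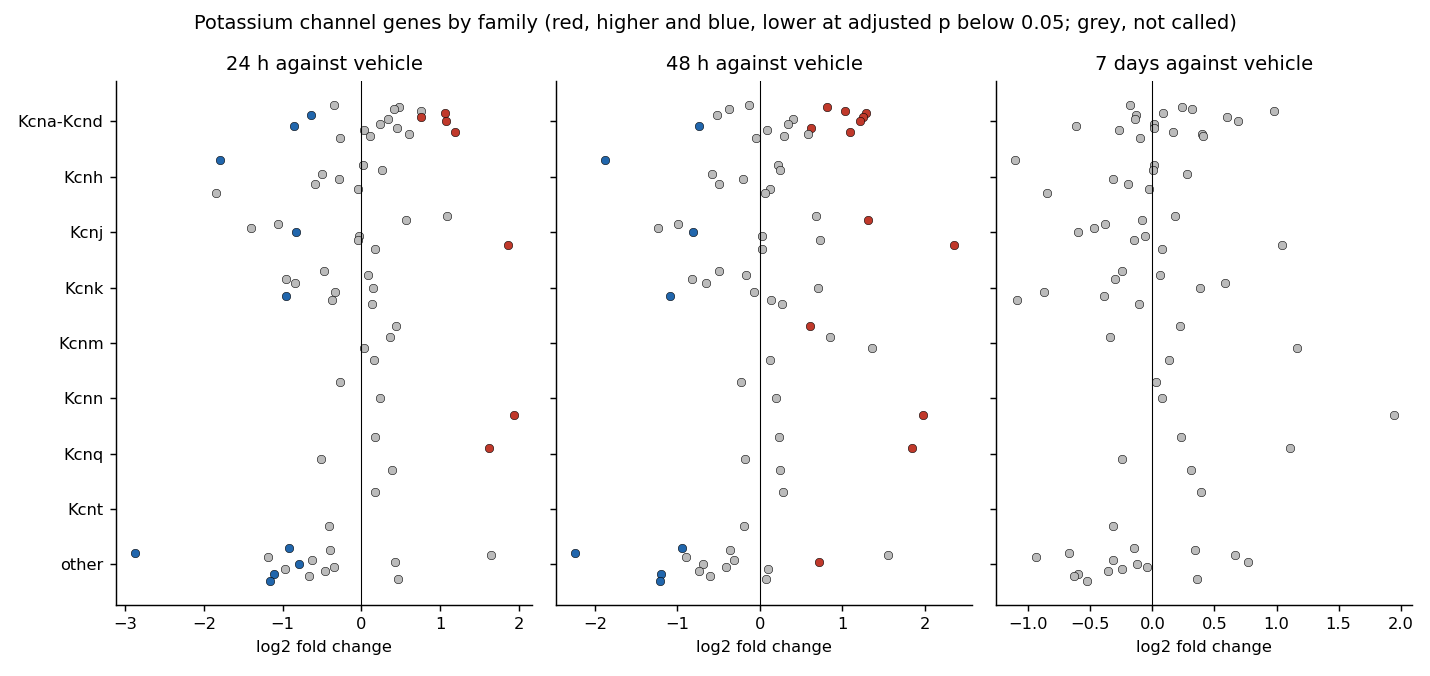
Log2 fold change against vehicle (horizontal axis) of the tested potassium channel genes by family at 24 h, 48 h and 7 days, red where higher and blue where lower at an adjusted p below 0.05. Kcnv2 is left out because it had no count in vehicle mice. Calls lie on both sides at 24 h and 48 h, and 0 genes were called at 7 days.

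Among the voltage-gated Kcna to Kcnd genes, 4 were higher and 2 lower at 24 h, and 7 were higher and 1 lower at 48 h, of 17 tested. Over all genes, 13.8% were higher and 10.4% lower at 24 h, and 16.8% were higher and 13.3% lower at 48 h, and the counts of each family stand beside those shares.

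The dendrotoxin-sensitive channel genes and their beta subunits moved unevenly. Kcna6 was at 9.52, 8.40, 10.5 and 7.96 CPM in vehicle mice, 12.3, 26.3, 19.3 and 18.2 at 24 h, and 24.98, 15.0, 20.8 and 27.4 at 48 h, with no overlap with vehicle at either time. Its log2 fold changes were 1.06 (SE 0.26, BH-adjusted p = 0.00901) and 1.28 (SE 0.26, BH-adjusted p = 0.00287), and with the 18S share as a covariate 0.64 and 0.84. Of the 5945 bases of its exons, 2355 are shared with the exons of Gm26673, and reads there were not assigned by default, so its level is less certain. Kcnab2, a beta subunit that binds Kcna channels in the cytoplasm, was at 16.5, 22.0, 14.6 and 17.1 CPM in vehicle mice, 21.2, 31.7, 33.5 and 32.0 at 24 h, and 37.7, 50.9, 31.9 and 45.7 at 48 h. Mouse 1 at 24 h lay inside the vehicle range and all mice at 48 h above it. The log2 fold change was 0.76 (SE 0.23, BH-adjusted p = 0.0229) at 24 h and 1.24 (SE 0.23, BH-adjusted p = 0.00194) at 48 h, against 0.22 and 0.70 with the covariate. Its 24 h call was lost in 6 of the 8 fits with 1 mouse left out (vehicle mouse 1, 3 or 4, or 24 h mouse 2, 3 or 4) and with no filter (adjusted p = 0.0651). The other beta subunit gene called, Kcnab1, was lower at 24 h, with a log2 fold change of -0.65 and an adjusted p of 0.0282 that was 0.0591 at 48 h. The 24 h call of Kcnab1 was lost in 5 of the 8 fits with 1 mouse left out.

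Kcna2, a channel of axon initial segments and the flanks of nodes, was at 118.3, 123.8, 174.1 and 180.2 CPM in vehicle mice and 260.6, 225.5, 286.4 and 278.2 at 48 h. The 48 h mice all stood above vehicle, with a log2 fold change of 0.82 (SE 0.21, BH-adjusted p = 0.0102) that was 0.098 with the 18S share as a covariate. At 24 h its values, 216.6, 201.7, 249.8 and 165.0, overlapped those of vehicle, and the log2 fold change of 0.48 had an adjusted p of 0.103. Kcna4, the A-type member of its family, had a log2 fold change of 1.03 at 48 h (adjusted p = 0.0288), a call lost in 6 of the 8 fits with 1 mouse left out. Kcna1 was not called, at -0.35 and -0.13.

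The Kcnc genes, which make the fast delayed rectifiers of rapidly firing neurons, split. Kcnc1 was at 81.2, 90.3, 60.3 and 59.5 CPM in vehicle mice, 50.1, 39.2, 37.0 and 35.0 at 24 h, and 34.5, 43.0, 43.9 and 53.4 at 48 h. All 8 of these DOI mice were below all vehicle mice, and the log2 fold changes were -0.85 (SE 0.26, BH-adjusted p = 0.0238) and -0.73 (SE 0.26, BH-adjusted p = 0.0378). The Kcnc1 call was lost in 4 of the 8 fits with 1 mouse left out at 24 h (vehicle mouse 1 or 2, or 24 h mouse 3 or 4) and in 5 of 8 at 48 h (vehicle mouse 1 or 2, or 48 h mouse 1, 2 or 3). At 48 h it was also lost with total-count scaling (adjusted p = 0.0551), library 2 alone (0.0645), thinned counts (0.0505) and the mouse number as a block (0.0633). Kcnc2 was at 187.3, 180.6, 187.4 and 216.2 CPM in vehicle mice and 341.8, 259.2, 314.9 and 268.5 at 48 h. It rose by a log2 fold change of 0.62 at 48 h (SE 0.19, BH-adjusted p = 0.0192), and at 24 h its value of 0.46 had an adjusted p of 0.0759. The 48 h call of Kcnc2 was lost without vehicle mouse 1 or 2 or 48 h mouse 1, and with no filter (adjusted p = 0.0746). Kcnc4 was higher at both times, by 1.19 and 1.10 on the log2 scale (adjusted p = 0.0220 and 0.0272). With 1 mouse left out, the Kcnc4 call was lost in 3 of the 8 fits at 24 h and 4 of 8 at 48 h. The inhibitory neuron marker sum, beside which these belong, was 1734 to 3201 CPM in vehicle mice, between 2016 and 2863 at 24 h and 2009 to 3142 at 48 h. The 8 markers moved apart: 1 was higher and 2 lower at 24 h, and 1 was higher and 1 lower at 48 h. In the order vehicle, 24 h and 48 h, mean Gad1 was 630.5, 352.9 and 414.1 CPM, Sst 525.8, 850.2 and 876.6, Vip 441.8, 752.1 and 736.7, and Pvalb 28.4, 24.0 and 27.7. With the 18S share as a covariate Kcnc1 was at 0.20 and 0.38, the opposite sign, but was not called (adjusted p = 0.979 and 0.996). Kcnc2 was at 0.021 at 48 h in that fit (adjusted p = 0.999).

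The A-type channel genes Kcnd1, Kcnd2 and Kcnd3 were not called. Kcnd2 was at 118.1, 102.0, 99.6 and 105.4 CPM in vehicle mice, 88.0, 139.4, 127.2 and 104.0 at 24 h, and 135.3, 86.6, 157.1 and 141.7 at 48 h. Its groups overlapped, with log2 fold changes of 0.11 (SE 0.25) and 0.29 (SE 0.25). Of the Kcnip genes, whose products assist Kcnd channels, Kcnip3 was lower at 24 h by a log2 fold change of -0.79 (adjusted p = 0.0474), and Kcnip2 was higher at 48 h by 0.71 (adjusted p = 0.0440). The values of Kcnip2 at 48 h were 43.6, 86.9, 40.5 and 93.7 CPM against 34.0 to 44.4 in vehicle mice, so 2 of the 4 mice overlapped vehicle. Each of these calls was lost in 6 of the 8 fits with 1 mouse left out.

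Of the 10 silent subunit genes tested, 4 were lower and 1 higher at 24 h, and the numbers at 48 h were the same, against 10.4% lower and 13.8% higher over all genes at 24 h and 13.3% and 16.8% at 48 h. Kcnv1, which stood next to Kcnk1 per kilobase in vehicle mice, was at 340.8, 360.4, 332.0 and 325.9 CPM in vehicle mice, 109.4, 162.7, 211.5 and 123.2 at 24 h, and 183.8, 95.4, 137.1 and 167.7 at 48 h. Every mouse at 24 h and 48 h lay below every vehicle mouse. The log2 fold change was -1.16 (SE 0.23, BH-adjusted p = 0.00337) at 24 h and -1.22 (SE 0.23, BH-adjusted p = 0.00215) at 48 h. Kcns2 was at 87.5, 92.7, 80.2 and 77.5 CPM in vehicle mice, 30.0, 45.5, 47.4 and 33.0 at 24 h, and 53.4, 23.5, 35.7 and 34.5 at 48 h, again without overlap. Its log2 fold changes were -1.11 (SE 0.34, BH-adjusted p = 0.0234) and -1.20 (SE 0.34, BH-adjusted p = 0.0141). The 24 h call of Kcns2 was lost without vehicle mouse 1 or 2 or 24 h mouse 1 or 4.

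Kcng2 fell to between 3 and 29 counts per mouse. Its summed counts were 130, 121, 111 and 96 in vehicle mice, 3, 14, 14 and 16 at 24 h, and 5, 13, 20 and 29 at 48 h. In CPM these were 9.32 to 13.7 in vehicle, 0.455 to 2.08 at 24 h and 0.722 to 3.84 at 48 h, with no overlap. The log2 fold change was -2.88 (SE 0.72, BH-adjusted p = 0.00996) and -2.24 (SE 0.70, BH-adjusted p = 0.0226). The 48 h call was lost without vehicle mouse 2 or 48 h mouse 1 or 2. Kcnf1 was also lower at both times, by -0.92 and -0.95 on the log2 scale (adjusted p = 0.0291 and 0.0213). With 1 mouse left out, its call was lost in 4 of the 8 fits at 24 h and 3 of 8 at 48 h. With the 18S share as a covariate Kcng2 was at 0.41 and 1.11 and Kcns2 at 0.11 and 0.10, while Kcnv1 stayed below 0 at -0.86 and -0.89. None of these was called in that fit (adjusted p = 0.961 to 0.999). The silent subunit gene that went the other way was Kcnv2, a gene best known from photoreceptors. It had 0 counts in all 4 vehicle mice, 0, 12, 4 and 24 at 24 h and 3, 25, 9 and 14 at 48 h. Against the level of 3 counts over the vehicle group (0.0751 CPM), the pooled level was at least 17.9-fold higher at 24 h and at least 24.9-fold higher at 48 h. Mouse 4 gave 24 of the 40 counts at 24 h, and the 24 h call was lost in 4 of the 8 fits with 1 mouse left out. It passed the count filter through the DOI mice alone, so its call, and its place among the 8 and 14 higher genes, rest on the filter. Kcng1, Kcng3, Kcng4, Kcns1 and Kcns3 were not called at either time.

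Of the 8 Kcnh genes (the eag, erg and elk channels), Kcnh1 was called and the others were not. Kcnh1 (eag, chromosome 1, 192190774 to 192510159, plus strand) was at 137.4, 126.3, 85.2 and 84.9 CPM in vehicle mice, 48.3, 27.9, 23.0 and 25.6 at 24 h, and 33.9, 26.2, 31.2 and 26.1 at 48 h. The highest DOI mouse of these times, at 48.3, was well under the lowest vehicle mouse. The log2 fold change was -1.80 (SE 0.34, BH-adjusted p = 0.00318) at 24 h and -1.88 (SE 0.34, BH-adjusted p = 0.00194) at 48 h. These were -0.32 and -0.26 with the 18S share as a covariate. Kcnh7, an erg channel and the most abundant Kcnh gene, was at 360 to 497 CPM in vehicle mice, between 345 and 465 at 24 h and between 398 and 480 at 48 h. Its groups overlapped, and its log2 fold changes were -0.04 (SE 0.17) and 0.12 (SE 0.17).

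Of the 9 inward rectifier genes tested, 1 was higher and 1 lower at 24 h, and 2 were higher and 1 lower at 48 h. Kcnj6 (GIRK2, chromosome 16, 94748636 to 94997701, minus strand), a subunit of the channels that serotonin, GABA-B and other G protein-coupled receptors open, was at 7.54, 8.85, 5.88 and 5.92 CPM in vehicle mice. It was at 22.9, 28.9, 25.7 and 25.2 at 24 h and at 51.1, 30.2, 29.2 and 32.7 at 48 h. All 8 mice stood above all vehicle mice, by a log2 fold change of 1.87 (SE 0.36, BH-adjusted p = 0.00329) and 2.35 (SE 0.37, BH-adjusted p = 0.00155). The values were 0.15 and 0.52 with the 18S share as a covariate. Of its exon bases, 380 are shared with exons of Gm41505. Its partner subunits Kcnj3 and Kcnj9 were far more abundant and were not called. Kcnj3 was at 134.7, 129.9, 159.2 and 181.8 CPM in vehicle mice and 145.4, 150.8, 169.2 and 127.8 at 24 h, which is a log2 fold change of -0.03 (SE 0.18), and 0.03 (SE 0.18) at 48 h. Kcnj9 was at 134.7, 119.5, 117.2 and 128.3 CPM in vehicle mice and 123.4, 162.0, 140.6 and 137.8 at 24 h, which is a log2 fold change of 0.18 (SE 0.18), and 0.03 (SE 0.18) at 48 h.

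Per kilobase, Kcnj6 was at 0.923 CPM in vehicle mice against 29.0 for Kcnj3, so it was the minor transcript of the 3 at each time. Kcnj2 (Kir2, chromosome 11, 111066164 to 111076821, plus strand), a strong rectifier that holds the resting potential, went down. It was at 26.0, 31.8, 26.9 and 30.3 CPM in vehicle mice, 21.7, 13.9, 17.95 and 11.2 at 24 h, and 14.2, 22.3, 13.7 and 15.4 at 48 h. The groups did not overlap, and the log2 fold changes were -0.83 (SE 0.24, BH-adjusted p = 0.0202) and -0.81 (SE 0.24, BH-adjusted p = 0.0188), or -0.16 and -0.098 with that covariate. With library 1 alone neither time was called (adjusted p = 0.0720 and 0.122), and the call was lost without vehicle mouse 2 or 24 h mouse 2 or 4 at 24 h, and without vehicle mouse 2 or 48 h mouse 3 at 48 h. Kcnj11, the pore of ATP-sensitive channels, was higher at 48 h, with a log2 fold change of 1.31 (adjusted p = 0.0284). That call was lost in 4 of the 8 fits with 1 mouse left out. Kcnj10, known mainly from glia, had a log2 fold change of 1.09 at 24 h that was not called (adjusted p = 0.0881), and the astrocyte markers summed to 114.4 to 225.8 CPM there against 150.3 to 192.4 in vehicle.

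Among the 9 leak channel genes tested, Kcnk4 (TRAAK) was called. It was at 48.3, 59.6, 50.9 and 47.3 CPM in vehicle mice, 13.2, 32.2, 35.1 and 25.2 at 24 h and 26.3, 22.2, 17.9 and 30.1 at 48 h, without overlap. The log2 fold changes were -0.96 (adjusted p = 0.0463) and -1.09 (adjusted p = 0.0231), and of 4465 exon bases 587 are shared with Catsperz. With 1 mouse left out, the 24 h call of Kcnk4 was lost in 7 of the 8 fits and the 48 h call in 3 of 8. The abundant Kcnk1 was at 162.6 to 215.8 CPM in vehicle mice, 111.7 to 158.7 at 24 h and 97.1 to 159.2 at 48 h. Its groups did not overlap, but its log2 fold changes of -0.48 (SE 0.20) and -0.50 (SE 0.20) had adjusted p of 0.0814 and 0.0621.

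Of the 9 calcium- and sodium-activated channel genes tested, 1 was higher at 24 h and 2 at 48 h, and 0 were lower. These counts are near the shares over all genes, which were 10.4% to 16.8% per direction. Kcnn3, a small-conductance channel gene that follows calcium entry with a lasting hyperpolarisation, was at 4.24, 4.198, 7.94 and 9.42 CPM in vehicle mice. It was at 21.2, 33.7, 14.4 and 29.6 at 24 h and 26.3, 36.4, 15.4 and 24.0 at 48 h. All 8 mice lay above vehicle, by 1.94 (SE 0.46, BH-adjusted p = 0.00790) and 1.98 (SE 0.46, BH-adjusted p = 0.00567) on the log2 scale, and by 0.29 and 0.31 with the 18S share as a covariate. Kcnn2, the most abundant gene of that family, was at 67.6 to 86.7 CPM in vehicle mice and 78.0 to 111.1 at 24 h, with log2 fold changes of 0.23 (SE 0.16) and 0.20 (SE 0.16) that were not called. Kcnma1, the pore of the large-conductance BK channel, was at 245.1, 220.8, 226.6 and 212.0 CPM in vehicle mice, 334.8, 279.0, 271.9 and 337.9 at 24 h and 331.7, 283.2, 418.6 and 338.3 at 48 h. Its groups did not overlap at either time. The log2 fold change was 0.44 (SE 0.21, BH-adjusted p = 0.136) at 24 h and 0.60 (SE 0.21, BH-adjusted p = 0.0398) at 48 h. The latter was -0.27 with the 18S share as a covariate, and not called (adjusted p = 0.996). The 48 h call of Kcnma1 was lost in 7 of the 8 fits with 1 mouse left out, all but that without 48 h mouse 2. It was also lost with no filter (adjusted p = 0.0924), library 2 alone (0.0602) and the mouse number as a block (0.0599). Kcnt1 was at 304 to 394 CPM in vehicle mice, between 373 and 460 at 24 h and between 398 and 493 at 48 h, with log2 fold changes of 0.17 (SE 0.16) and 0.28 (SE 0.16), neither called.

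The Kcnq genes make the M-current, a slow brake on repetitive firing that muscarinic and other receptors lift, and 1 of the 4 tested was higher at each of 24 h and 48 h. Kcnq3 (chromosome 15, 65986387 to 66286642, minus strand) was at 41.6, 39.5, 56.6 and 52.8 CPM in vehicle mice. It was at 160.4, 129.6, 149.4 and 147.7 at 24 h and 197.4, 150.3, 165.6 and 169.8 at 48 h. The lowest of these DOI mice, at 129.6, was above the highest vehicle mouse, at 56.6, and the log2 fold changes were 1.62 (SE 0.32, BH-adjusted p = 0.00329) and 1.84 (SE 0.32, BH-adjusted p = 0.00171). They were 0.097 and 0.20 with the 18S share as a covariate. Per kilobase, Kcnq3 stood at 3.24 CPM in vehicle mice. Kcnq5 was not called, with log2 fold changes of 0.39 and 0.25.

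**Figure D3:**
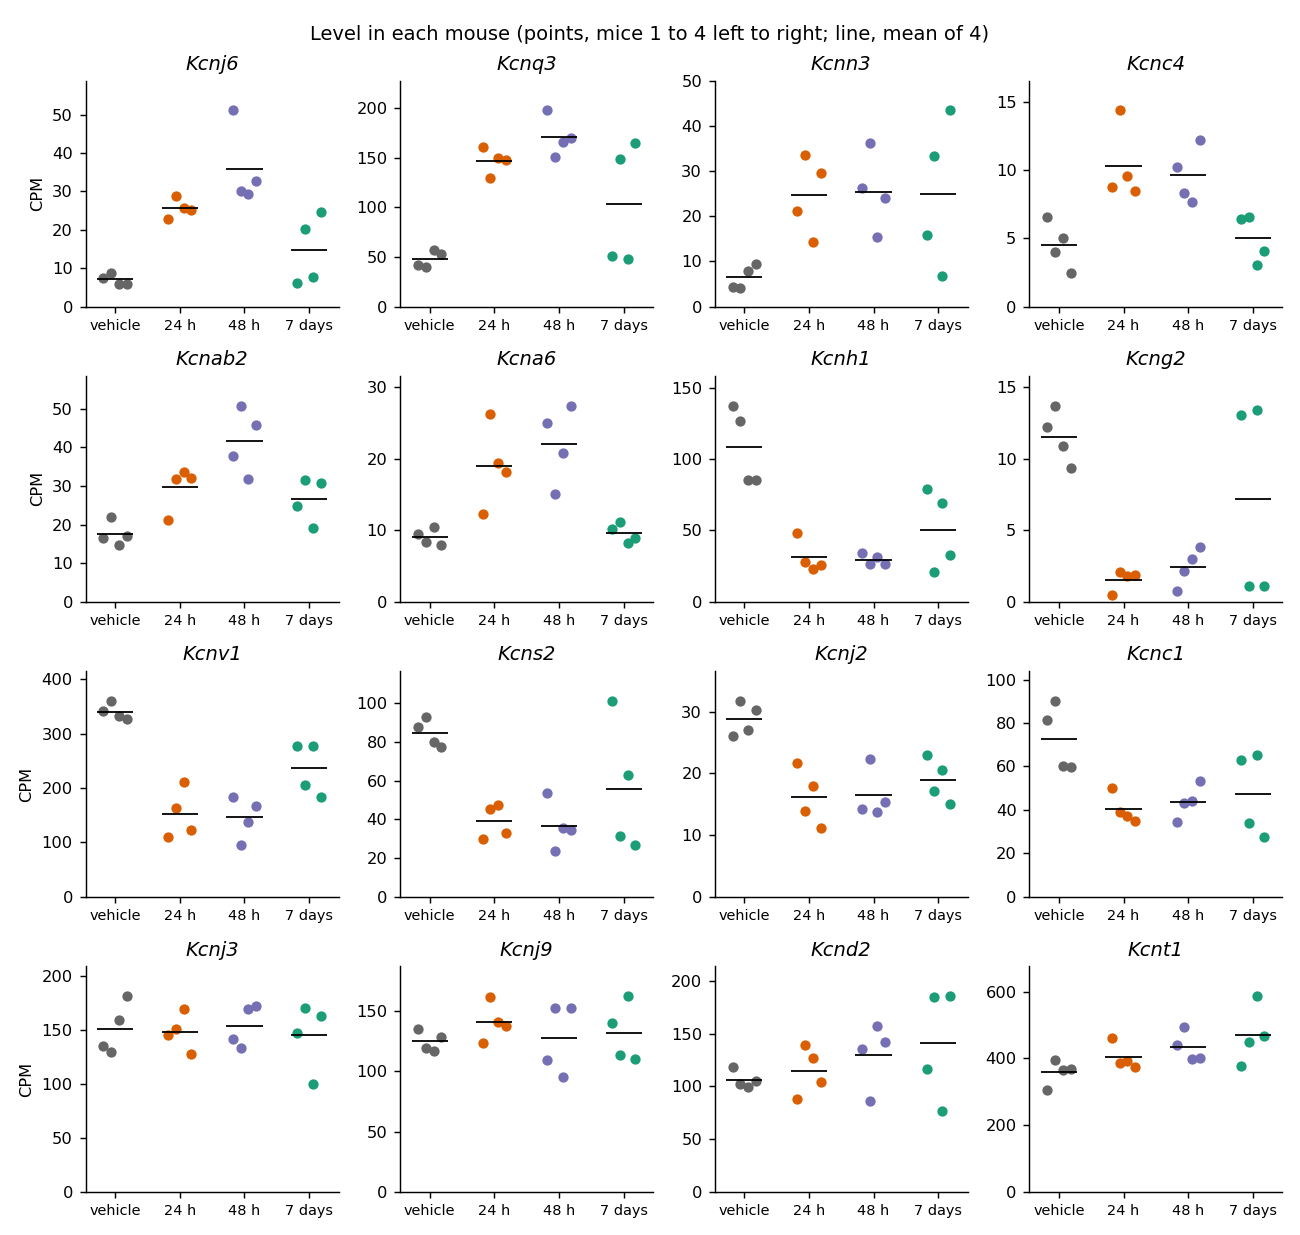
Level in CPM (vertical axes, from 0) of 16 potassium channel genes in each of the 16 mice, with the mean of each group as a line. The first 6 genes were higher and the next 6 lower at 24 h, and the last 4 were not called. At 7 days mice 2 and 4 stand apart from mice 1 and 3 for most of the genes that were called.

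At 7 days, 0 of the 72 genes passed the adjusted threshold in edgeR, as did 0% of all genes. At an unadjusted p below 0.05 there were 13 (18.1%), against 16.8% of all genes. Groups did not overlap for 6 of the 72 (8.33%), against 5.96% of protein-coding genes. DESeq2 called 4 of 78 (5.13%), which were Kcnh1, Kcnn3, Kcnq3 and Kcnv2, against 3.61% of all genes. The mice differed widely from each other. Kcnq3 was at 50.4, 148.8, 47.5 and 164.1 CPM in mice 1 to 4 and Kcnj6 at 6.08, 20.2, 7.57 and 24.5. Mice 2 and 4 stood above every vehicle mouse for both genes, and mice 1 and 3 were inside or near the vehicle range. For the genes that had been lower, Kcng2 was at 13.1, 1.12, 13.4 and 1.12 CPM, Kcnh1 at 79.0, 21.0, 68.8 and 32.4, and Kcns2 at 101.3, 31.4, 63.0 and 26.6. The same 2 mice were the low ones there, and they were the 2 with the high 18S share. They also had the higher mitochondrial share, at 0.130% and 0.114% against 0.0413% and 0.0210%, and the higher excitatory marker sum, at 1415 and 1281 CPM against 506.5 and 481.1. Their striatal marker sums, 2073 and 1543 CPM, stood above those of mice 1 and 3, at 722 and 458. The part of these values in the 7-day levels was not tested. Leaving out mouse 1 gave 8 calls (11%, against 7.26% of all genes) and leaving out mouse 3 gave 6 (8.22%, against 6.28%), while leaving out any other 1 of the 16 mice gave 0.

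Kcnn3 had the smallest p at 7 days. It was at 15.9, 33.4, 6.87 and 43.5 CPM, with mouse 3 inside the vehicle range, and its log2 fold change was 1.94 (SE 0.46, BH-adjusted p = 0.0960). The sum of 9 striatal projection neuron markers, given above for these 4 mice, was 378.3 to 463.5 CPM in vehicle mice, 299.7 to 362.5 at 24 h and 381.1 to 736.7 at 48 h. At 48 h 2 mice, at 736.7 and 576.6, lay above the vehicle sum. All 24 h mice lay below all vehicle mice in the sum. Of the 8 markers tested, 0 were called higher and 2 lower at 24 h, and 1 higher and 0 lower at 48 h. Single markers moved both ways at 24 h. Mean Penk was 113.7 CPM against 163.6 in vehicle, Drd1 21.66 against 40.45 and Ppp1r1b 18.85 against 38.97. Mean Rgs9 was 13.5 CPM against 6.55, and mean Pde10a 97.9 against 87.1. The part of these markers in the level of Kcnn3 was not tested at any time. Kcna6 did not follow the pattern of Kcnq3 and Kcnj6 at 7 days: it was at 10.1, 11.2, 8.27 and 8.92 CPM, and mice 2 and 4 were near vehicle.

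**Figure D4:**
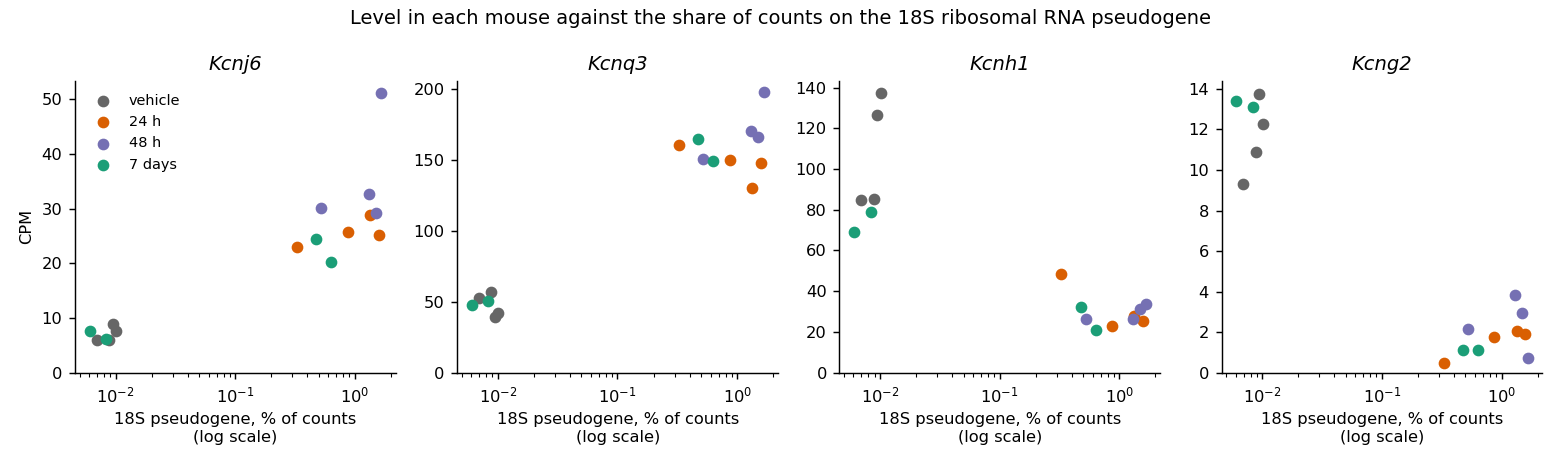
Level in CPM (vertical axes, from 0) of Kcnj6, Kcnq3, Kcnh1 and Kcng2 in each mouse against the share of its counts on the 18S ribosomal RNA pseudogene (horizontal axes, log scale). The mice form separate clusters along the share, with 7-day mice 1 and 3 beside the vehicle mice and mice 2 and 4 beside those of 24 h and 48 h.

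Between the DOI groups 0 of 72 genes passed the adjusted threshold in any of the 3 direct comparisons in edgeR. For 48 h against 24 h this compares with 0% of all genes, and Kcnab2 and Kcnh8 had an unadjusted p below 0.05 (2.78%, against 1.88% of all genes), to which DESeq2 added Kcnrg without calling any. Kcnj6 had no overlap between these groups, the lowest mouse at 48 h being at 29.2 and the highest at 24 h at 28.9 CPM. The difference was 0.48 on the log2 scale (95% interval -0.20 to 1.16). For 7 days against 24 h the share of all genes called was 0.00557%, and 12 potassium channel genes (16.7%) had an unadjusted p below 0.05, against 14.2% of all genes. DESeq2 called Kcna6 and Kcnk13 (2.7%, against 1.77% of all genes). For 7 days against 48 h the share was 0%, 16 (22.2%) had an unadjusted p below 0.05, against 16.5% of all genes and 18.7% of protein-coding genes, and DESeq2 called Kcna6, Kcnh4, Kcnj6, Kcnj11 and Kcnk13 (7.25%, against 2.56% of all genes). In edgeR Kcna6 had the smallest p of that comparison, with a log2 fold change of -1.20 (95% interval -1.71 to -0.69, adjusted p = 0.125).

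Length was a property that the choice of genes had not used. The 8 genes higher at 24 h, Kcnv2 among them, had a median exon length of 7305 bases, the 10 lower ones 5116.5 and the 54 not called 4398. At 48 h, again with Kcnv2 among the higher genes, the medians were 7057.5, 5116.5 and 4219.5 bases. Over all protein-coding genes tested the medians in the same order were 6310, 4789.5 and 4420 bases at 24 h and 6552, 4357.5 and 4451 at 48 h, when the lower genes were shorter than those not called. Across the 72 potassium channel genes, the rank correlation of exon length with log2 fold change was 0.32 at 24 h and 0.27 at 48 h, and across 13223 protein-coding genes it was 0.12 and 0.19. Across all 17941 genes tested it had the opposite sign, at -0.07 and -0.03. Genes are not independent replicates and share the same 16 mice, so these are descriptions.

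**Figure D5:**
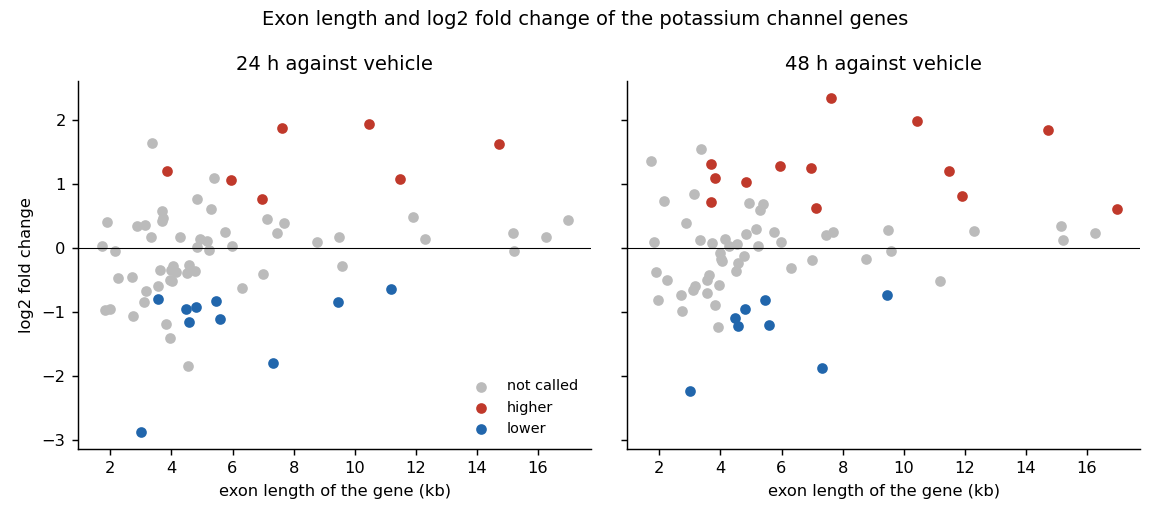
Log2 fold change against vehicle (vertical axis) and exon length in kilobases (horizontal axis) of the tested potassium channel genes other than Kcnv2, at 24 h and 48 h. With Kcnv2 counted, the 8 genes higher at 24 h have a median length of 7305 bases, and the 10 lower ones (blue) have 5116.5.

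Genes whose products work with the channels were counted from a list of 30, of which 28 were tested. At 24 h 8 were higher and 6 lower, and at 48 h 9 were higher and 5 lower, and at 7 days 0 were called. The shares were 28.6% and 21.4% at 24 h and 32.1% and 17.9% at 48 h, against 13.8% and 10.4%, and 16.8% and 13.3%, of all genes. Of protein-coding genes, 11.4% were higher and 12.6% lower at 24 h, and 13.8% and 16% at 48 h. The list was drawn up by hand with earlier results of these data known, so its shares are descriptions and the list was not tested as a set. The cell adhesion genes Cntn2 and Cntnap2, which anchor Kcna channels beside nodes, were the 2 with the smallest p among the higher ones at 24 h. Cntn2 was at 20.4 to 28.4 CPM in vehicle mice and 51.1 to 74.9 at 24 h, giving a log2 fold change of 1.40 (SE 0.25, BH-adjusted p = 0.00260). Cntnap2 was at 65.6 to 76.6 and 212.5 to 289.0 CPM, a log2 fold change of 1.77 (SE 0.37, BH-adjusted p = 0.00445). Among the lower ones were Rgs7, which speeds the closing of G protein-gated channels, at 220.7 to 275.2 and 89.7 to 138.9 CPM (-1.17, SE 0.26, BH-adjusted p = 0.00547), and Vapa, an endoplasmic reticulum protein that binds Kcnb channels of the plasma membrane, at 170.6 to 198.2 and 68.0 to 129.5 CPM (-0.85, SE 0.24, BH-adjusted p = 0.0163). None of these 4 genes overlapped between the 24 h and vehicle mice.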

How the data were processed

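RNA had been made from NeuN-sorted nuclei of 16 mice, 4 per group and 2 libraries per mouse. The deposited files hold whole-number read counts, not normalized. Exons of each GRCm38 gene ID were counted with featureCounts 2.0.0, per the file headers, with no option for strand, multi-mapping or overlapping reads. An antisense read therefore counts toward the gene it overlaps, and reads on exons shared by genes are not assigned. The submitters' processing notes also list Trim Galore 0.6.5, Bowtie2 2.4.1 and DESeq2 1.30.0 without roles, and the aligner of the RNA reads is not given in the sources used here. Chromatin samples were not analysed here. For 3 mice the header carried another mouse number than the label, and the label was used.

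Both libraries of each mouse were added together. Library totals ran from 2763704 to 7436451 counts. Genes were kept with filterByExpr, scaled by TMM and tested in 1 edgeR 4.0.16 quasi-likelihood fit over the 4 groups (R 4.3.3), with Benjamini-Hochberg adjustment over 17941 genes and a threshold of 0.05. SE is the log2 fold change divided by the square root of F. Gene types and start-site regions came from RefSeq GRCm38.p6. Nothing says that mice of a group were treated on separate days, so p-values measure the spread between these mice. Bounds from 3 counts cover counting error only. On counts simulated for the 24 h comparison (17941 genes), 163 of 200 genes changed 3-fold were recovered, with 7 false calls. Alternatives were DESeq2 1.42.0, limma 3.58.1 voom with quality weights, other scaling, filters, gene sets, libraries, covariates and thresholds, a replicate block, and each mouse left out.

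The members, gene lists and tests were chosen with earlier results of these data known. Named with values in every mouse or by range were the most abundant member of each family, the 4 called members with the smallest p in each direction per comparison with vehicle (or the 1 with the smallest p where none was called), the 3 with the smallest p among the 4 groups, and a fixed set that includes Kcnq3, Kcnj3, Kcnj6, Kcnj9, Kcna2, Kcnc1, Kcnd2 and Kcnma1. Some members are not reported here and stand only in the counts. Other members named were chosen after their values were seen. Of the partner genes, the 2 with the smallest p in each direction at 24 h were named.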

Additional observations from a re-analysis of the deposited data

Results flagged for a closer look

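Single mice stood far from the other 3 of their group for 4 of the 120 group values looked at (30 named or called genes in 4 groups), by a gap test that chance passes in about 1 of 20 groups. Over all 72 tested members it was passed by 18 of 288. In vehicle mice, Kcnf1 was high in mouse 1, at 351.1 CPM with the nearest at 260.9. At 24 h, Kcnab2 was low in mouse 1, at 21.2 with the nearest at 31.7. At 48 h, Kcnj6 was high in mouse 1, at 51.1 with the nearest at 32.7, and Kcnip3 was high in the same mouse, at 100.6 with the nearest at 80.9. Mouse 1 at 24 h and mouse 1 at 48 h had the fewest genes detected, 22989 and 21266.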

How the results depend on the processing

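The number of potassium channel genes called moved with several choices, and where it did the cause was not tested. At 24 h (18 in the reported fit), limma voom with sample quality weights gave 35, a fit of only the groups compared 31, a threshold of 0.01 gave 8 and the 18S share as a covariate 0. At 48 h (22) a threshold of 0.01 gave 8 and the 18S share 0. At 7 days (0) DESeq2 gave 4, no filter 5 (Kcna4, Kcnh1, Kcnn3, Kcnq3 and Kcnv2; 5.38%, against 2.62% of all genes) and a threshold of 0.1 gave 1 (Kcnn3; 1.39%, against 1.32%). Among the 4 groups (17) limma voom with those weights gave 30, the 18S share 0, a threshold of 0.01 gave 6, and leaving out mouse 1 at 24 h and mouse 1 at 48 h, a choice made after seeing the data, gave 11. Without the 7-day group, also chosen after seeing the data, 27 were called at each of 24 h and 48 h. Where no share of all genes is given for a fit, here or in the results above, it was not worked out. Such a count describes the potassium channel genes alone and does not tell whether other genes moved alike. Leaving out 1 mouse of the groups compared at a time gave between 9 and 16 calls at 24 h, between 13 and 22 at 48 h, 0 to 8 at 7 days and 7 to 21 among the 4 groups. With the mouse number as a replicate block the counts were 16, 19, 0 and 13. The numbers do not pair the mice: deviations of same-numbered mice had a mean correlation of -0.04 (-0.31 to 0.27).

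Scaling by total counts moved the median of all genes to 0.14 at 24 h and 0.12 at 48 h, and at 24 h gave 9 higher and 7 lower in place of 8 and 10. The log2 fold changes that changed sign did so with the 18S share as a covariate: Kcnc1 at 0.20 and 0.38, Kcng2 at 0.41 and 1.11, and Kcns2 at 0.11 and 0.10 at 24 h and 48 h, and Kcnma1 at -0.27 at 48 h. None of these was called in that fit (adjusted p = 0.979 to 0.999). Of the other values of named genes in these settings 626 kept their side of the threshold, 33 lost the call and 21 gained one. Depth limits the scarce members most: Kcnv2 and Kcng2 rest on few reads in some mice.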
